A study of Mus musculus with 6 samples.

Results

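Bidirectional promoter long noncoding RNAs (lncRNAs) are noncoding genes that start in the promoter of a protein-coding gene and are read away from it on the opposite strand. The count table held 190 genes that the GENCODE M21 annotation places in this class, among 55401 genes in all. The 103 with 30 or more reads summed over the 6 libraries are described here, each beside its partner, the protein-coding gene on the opposite strand whose transcript start lies nearest and within 2000 bases. The members were thus chosen by their total read count, a measured value, and not by the difference between groups. Just inside the threshold were 1700026N04Rik (30 reads, partner Dek) and 1700030M09Rik (31 reads, partner 1700018B08Rik), and just outside it were 5330439K02Rik (29 reads) and AC140278.1 (27 reads). Of the 87 genes under the threshold, 19 had no read.

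Most mammalian promoters with many CpG dinucleotides load RNA polymerase II in both directions. At many of them the upstream transcript ends early and is degraded by the nuclear exosome, and at others it is spliced, polyadenylated and stable enough to be annotated as a gene. How much RNA a shared promoter yields on each side therefore depends on initiation, on early termination and on decay. TFIID is the general transcription factor that recognises core promoters, and TAF13 is one of its subunits.

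The study measured polyadenylated RNA in mouse embryonic stem (ES) cells of 2 groups of 3 libraries, each grown in its own Petri dish for 7 days. One group is labelled as cells that express 3XHA-Taf13, a version of the protein with an epitope tag, with no treatment, and the other is labelled KO with doxycycline, so the KO label and the drug cannot be told apart. The labels do not give the number of clones or the construct that doxycycline acts on.

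The promoters of 5 pairs are shown because the results below turn on them: the most abundant lncRNA per kilobase, the member that fell, and 3 of the largest increases. Each is read 5′ to 3′ on the strand of the partner from RefSeq promoter windows on GRCm38.p6. Capitals mark the bases between the nearest annotated starts of both genes. The lncRNA is read leftwards from its start on the other strand, and the partner is read rightwards.
Ndufb1-ps and Cpsf2: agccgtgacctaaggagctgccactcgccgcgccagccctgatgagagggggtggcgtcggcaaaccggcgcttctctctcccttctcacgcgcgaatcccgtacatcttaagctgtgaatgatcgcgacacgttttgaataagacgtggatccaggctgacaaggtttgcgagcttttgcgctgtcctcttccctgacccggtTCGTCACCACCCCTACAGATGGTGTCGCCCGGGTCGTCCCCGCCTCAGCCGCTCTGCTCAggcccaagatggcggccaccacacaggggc
1700097N02Rik and Dnah8: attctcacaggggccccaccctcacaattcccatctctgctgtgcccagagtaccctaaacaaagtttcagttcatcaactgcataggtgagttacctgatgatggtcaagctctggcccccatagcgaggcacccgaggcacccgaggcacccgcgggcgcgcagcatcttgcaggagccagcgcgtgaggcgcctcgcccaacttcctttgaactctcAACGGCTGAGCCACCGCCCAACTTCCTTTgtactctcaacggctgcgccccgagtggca
Gm4890 and Mmaa: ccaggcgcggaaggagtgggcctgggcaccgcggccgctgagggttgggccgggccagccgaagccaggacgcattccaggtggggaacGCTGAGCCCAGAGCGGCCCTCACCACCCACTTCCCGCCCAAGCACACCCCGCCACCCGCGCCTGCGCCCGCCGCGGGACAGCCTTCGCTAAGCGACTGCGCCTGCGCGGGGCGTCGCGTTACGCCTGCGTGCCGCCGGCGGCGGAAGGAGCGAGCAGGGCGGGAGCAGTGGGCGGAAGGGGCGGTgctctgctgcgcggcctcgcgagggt
5830448L01Rik and Wapl: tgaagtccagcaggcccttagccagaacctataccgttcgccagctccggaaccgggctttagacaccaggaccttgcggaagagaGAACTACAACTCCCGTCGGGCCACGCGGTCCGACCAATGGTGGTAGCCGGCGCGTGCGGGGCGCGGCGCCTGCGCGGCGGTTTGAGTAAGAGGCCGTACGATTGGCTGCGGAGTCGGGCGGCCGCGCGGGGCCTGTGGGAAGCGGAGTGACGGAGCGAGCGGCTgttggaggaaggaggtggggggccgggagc
4732491K20Rik and Map3k4: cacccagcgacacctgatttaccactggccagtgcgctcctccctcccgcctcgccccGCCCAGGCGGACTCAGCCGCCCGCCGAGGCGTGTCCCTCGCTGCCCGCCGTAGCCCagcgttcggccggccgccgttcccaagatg
The first lies at chr12:101975724-101976017 (+ strand), the second at chr17:30626686-30626964 (+ strand) and the third at chr8:79294912-79295211 (- strand). The last pair lie at chr14:34673678-34673957 (+ strand) and chr17:12318767-12318910 (- strand). The annotated starts lie 61, 30, 186, 165 and 57 bases apart, with the capitals between them. In these pairs both start sites thus fit within 1 stretch of DNA shorter than 200 bases.

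Total counts ran from 31219328 to 50328010 reads per library. Expressing replicate 1 stood apart from the other libraries of its group (chi-square per degree of freedom 37 and 29.6, against at most 6.28 for the other pairs within a group). Taf13 itself stood at 7.82, 10.1 and 12.2 CPM (read counts scaled by TMM to a common library size) in the expressing libraries and at 12.1, 14.1 and 13.5 CPM in the KO libraries, a log2 fold change of 0.39 (SE 0.147, adjusted p = 0.0578, edgeR). The gene counts do not separate the tagged from the chromosomal transcript, so Taf13 is no check of the labels, and every direction below rests on them. Of 10 ES cell markers 9 were lower (median log2 fold change -0.64), and their summed level was 3195 to 3249 CPM in the libraries labelled KO against 4407 to 4570. The sum leans on abundant genes such as Lin28a, the marker that did not pass (869 against 861 CPM). Nanog, for example, stood at 119 against 281 CPM. Of 12 primitive endoderm markers 12 were higher (1068 to 1091 against 387 to 467 CPM), and of 10 fibroblast markers 3 were higher and 1 lower (119 to 205 against 129 to 164 CPM). These marker levels moved with the group label, and their part in the lncRNA results was not tested. In a bulk library, fewer cells that make a transcript and less of it per cell cannot be told apart.

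The nearest annotated starts of lncRNA and partner lay between -548 and 896 bases apart with a median of 95. A negative distance means that transcripts from these nearest starts overlap at their 5′ ends, as for 15 members. A positive distance does not exclude overlap, because a gene can have further starts and exons. Of the 103 distances, 98 were within 300 bases. Exon length ran from 279 to 7303 bases (median 1680), 30 members had a single exon and 73 were spliced. They lay on 16 chromosomes, most often on chromosomes 10 (15 members), 17 (14), 8 (14), 12 (13) and 7 (10). The exons of 40 members overlapped an exon of another gene, 31 of them that of the partner and 2 a gene on the same strand. The kit marked strand, but whether counting used it is not given, so reads in those overlaps are uncertain.

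On a scale per kilobase of exon, the median member stood at 0.411 CPM per kb and the median partner at 8.69 CPM per kb. The median lncRNA reached 4.92% of its partner's level, and 52 were under 5%. Only 7 stood above the partner: Ndufb1-ps, 1700097N02Rik, Gm4890, 9330151L19Rik, Gm27045, D030046N08Rik and 1700030M09Rik, the last 4 of them beside partners at under 0.1 CPM per kb. The level was 1 CPM or more for 37 members and 10 CPM or more for 5. B230354K17Rik and Ndufb1-ps alone held 54.6% of all reads of the class. The 103 genes together made up 0.0267% to 0.0286% of each expressing library and 0.0355% to 0.0368% of each library labelled KO.

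The class was higher in the libraries labelled KO. With every member tested, in a fit of all 19806 genes with 30 or more reads, 37 of 103 were higher, 2 were lower and 64 did not pass (edgeR, Benjamini-Hochberg adjusted p under 0.05). In that fit 17.4% of all genes were higher and 18.9% lower. The median log2 fold change was 0.57 for the members and -0.01 for all genes, and 82 members lay above 0 and 21 below. Summed without B230354K17Rik and Ndufb1-ps, the members stood at 109 CPM, 119.5 CPM and 123 CPM in the expressing libraries (117 ± 7.19, SD, n = 3) and at 168 CPM, 171 CPM and 172 CPM in the KO libraries (170.1 ± 2.16, SD, n = 3). The groups did not overlap in this sum. Gene by gene, all 3 KO libraries lay above all 3 expressing libraries for 49 members and below them for 3, where 25.1% and 25.3% of all genes did so.

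Under the filter on low counts that the remaining tests use, 80 members were tested, and 37 were higher (background 19.2%), 1 was lower (background 20.8%) and 42 did not pass. The 23 untested members had too few reads. Among the 80, 18 reached the count cutoff in all 3 KO libraries but in fewer than 3 expressing ones, and 9 of these were called higher, so the share among tested members is not a share of the class. Of the 60 members with 100 or more reads, all of which were tested, 32 were higher and 1 lower. Increases ran from 0.37 to 1.96 on the log2 scale with a median of 1.00, and 19 reached 2-fold. For 25 of the members that did not pass, the 95% interval excluded a 2-fold change up or down. The count of 37 fell to 24 without KO replicate 3, while leaving out expressing replicate 1 gave 35, and 21 of the 37 passed in each of the 15 other settings that tested them.

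The 4 members with the highest level per kilobase had log2 fold changes between -0.46 and 0.37. Ndufb1-ps, at 66.8 CPM per kb, has an annotated start 61 bases from Cpsf2, which encodes a subunit of the cleavage and polyadenylation factor CPSF. Its annotated span also reaches past the start of Cpsf2, so not every transcript of Ndufb1-ps begins at the start shown. The symbol Ndufb1-ps names a pseudogene of the respiratory-chain gene Ndufb1, while the annotation places the gene in the lncRNA class with up to 3 exons. What its reads stand for was not tested, and reads could be shared with a copy. It stood at 63.9 CPM, 67.5 CPM and 69.8 CPM in the expressing libraries and at 91.4 CPM, 86.9 CPM and 82.3 CPM in the KO libraries. All 3 KO libraries were above all 3 expressing ones, and the log2 fold change was 0.37 (SE 0.0656, adjusted p = 0.00181, edgeR). Cpsf2 stood at 234 CPM, 257 CPM and 258 CPM against 235 CPM, 222 CPM and 236 CPM, overlapping between groups, with a log2 fold change of -0.11 (95% interval -0.25 to 0.02). Exons of Ndufb1-ps share 147 bases with those of Cpsf2, so reads there are uncertain. B230354K17Rik, beside Cdc5l, a core component of the spliceosome, stood at 93.9 CPM, 106 CPM and 108 CPM against 98.6 CPM, 92.9 CPM and 92.5 CPM. The lowest expressing library lay among the KO libraries, and its log2 fold change was -0.12 (95% interval -0.28 to 0.04). It was called lower without expressing replicate 1 (-0.15, adjusted p = 0.00351, edgeR) and with the GC trend removed (-0.18, adjusted p = 0.00204, edgeR). Cdc5l fell from 192 ± 7.30 to 141 ± 6.95 CPM (SD, n = 3). Exons of B230354K17Rik share 1091 bases with those of Cdc5l and Spats1, so its reads are uncertain where strand was not used in counting. 2810013P06Rik, a single-exon gene beside the chromatin regulator Ankrd11, stood at 10.5 CPM, 13.3 CPM and 13.2 CPM against 13.7 CPM, 14.2 CPM and 14.8 CPM. The groups were separate but close, and the log2 fold change of 0.20 did not pass (adjusted p = 0.156, edgeR), but did with library totals (0.29, adjusted p = 0.0417).

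The largest increase among members of at least 0.5 CPM was that of 2310014F06Rik, which starts 548 bases inside the transcript of Tead1, a DNA-binding factor of the Hippo pathway. It stood at 0.481 CPM, 0.726 CPM and 0.52 CPM in the expressing libraries and at 2.44 CPM, 1.82 CPM and 2.27 CPM in the KO libraries. Every KO library was more than 2-fold above every expressing one, and the log2 fold change was 1.88 (SE 0.221, adjusted p = 0.00018, edgeR). Tead1 rose as well, from 321 CPM, 393 CPM and 366 CPM to 612 CPM, 633 CPM and 636 CPM (0.80, SE 0.0745).

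9530062K07Rik, 45 bases from Washc2, a subunit of the endosomal WASH complex, stood at 0.032 CPM, 0.431 CPM and 0.356 CPM against 0.946 CPM, 0.754 CPM and 0.814 CPM. Expressing replicate 1 was far below the other expressing libraries, with 1 read. Its increase of 1.51 (SE 0.461, adjusted p = 0.0267, edgeR) did not pass once 1 library was left out: expressing replicate 3 (0.0508), or KO replicate 1 (0.0789), 2 (0.0579) or 3 (0.0726). Washc2 did not pass (-0.07, 95% interval -0.19 to 0.05).

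Gm26708, a spliced transcript 247 bases from Abhd17c, a gene for an enzyme that removes palmitate from proteins, stood at 0.385 CPM, 0.249 CPM and 0.356 CPM against 0.975 CPM, 0.821 CPM and 0.775 CPM. Its groups were well apart, with a log2 fold change of 1.38 (SE 0.27, adjusted p = 0.00314, edgeR), while Abhd17c did not pass at -0.20. Gm4890, 186 bases from the vitamin B12 metabolism gene Mmaa, stood at 3.3 CPM, 2.54 CPM and 2.55 CPM against 6.59 CPM, 7.05 CPM and 7.54 CPM. It rose by 1.35 (SE 0.134, adjusted p = 7.17e-05, edgeR) with every KO library above every expressing one. Mmaa had 3.59 CPM, 3.56 CPM and 3.39 CPM against 3.67 CPM, 4.01 CPM and 3.93 CPM, a change of 0.14 that did not pass (95% interval -0.11 to 0.40). Per kilobase, Gm4890 was at 213% of Mmaa's level over the 6 libraries.

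5830448L01Rik, a single exon 165 bases from Wapl, which encodes the factor that releases cohesin from DNA, stood at 0.641 CPM, 0.635 CPM and 0.684 CPM against 1.6 CPM, 1.66 CPM and 1.4 CPM. The expressing libraries were close to each other and all KO libraries lay more than 2-fold above them, and the change was 1.24 (SE 0.189, adjusted p = 0.000799, edgeR). 4732491K20Rik, 57 bases from the stress kinase gene Map3k4, stood at 0.641 CPM, 0.454 CPM and 0.629 CPM against 0.975 CPM, 1.46 CPM and 1.53 CPM (1.24, SE 0.255, adjusted p = 0.00422, edgeR). KO replicate 1 was the lowest of its group and still above all expressing libraries. Map3k4 moved the other way, from 67.2 ± 5.83 to 56.5 ± 3.34 CPM (SD, n = 3; -0.25, adjusted p = 0.0332, edgeR), and Wapl did not pass (-0.14).

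4632427E13Rik, beside the Golgi GTPase gene Rab30, stood at 4.81 CPM, 9.34 CPM and 8.29 CPM against 17.6 CPM, 18.1 CPM and 16.1 CPM, a change of 1.19 (SE 0.194, adjusted p = 0.00116, edgeR). Expressing replicate 1 was lowest, and the groups did not overlap. Rab30 rose alongside, from 11.7 CPM, 15.9 CPM and 13.9 CPM to 31.1 CPM, 28.6 CPM and 29.2 CPM (1.09, SE 0.109). AC114539.1, beside Nfkb2, which encodes the p100 precursor of an NF-kappaB subunit, rose by 1.12 (SE 0.212, adjusted p = 0.00262, edgeR) from 0.915 ± 0.267 to 1.96 ± 0.112 CPM (SD, n = 3). Its exons overlap those of Nfkb2, which rose by 0.37.

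**Figure D1:**
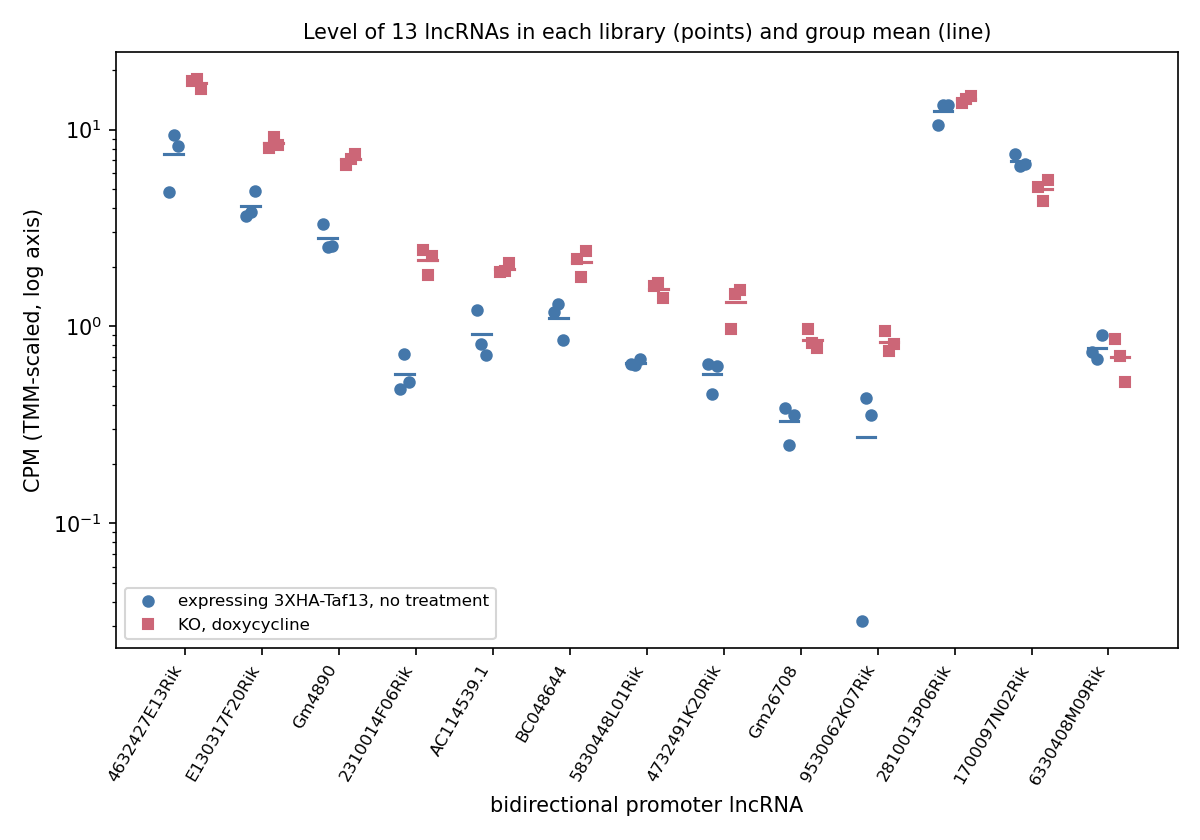
Levels of 13 bidirectional promoter lncRNAs in each library, in TMM-scaled CPM on a log axis; circles are the 3 expressing libraries, squares the 3 libraries labelled KO and short lines the group means. Squares lie above circles for the first 11 genes, below them for 1700097N02Rik, and among them for 6330408M09Rik.

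The decreases were few. 1700097N02Rik stood at 7.5 CPM, 6.51 CPM and 6.71 CPM in the expressing libraries and at 5.13 CPM, 4.35 CPM and 5.52 CPM in the KO libraries. All KO libraries were below all expressing ones, and the log2 fold change was -0.46 (SE 0.123, adjusted p = 0.0149, edgeR), or -0.37 (adjusted p = 0.0617) without KO replicate 2. Its partner Dnah8, an axonemal dynein heavy chain gene 30 bases away, went the other way, from 83.5 CPM, 84.1 CPM and 81.4 CPM to 104 CPM, 112 CPM and 118 CPM (0.42, SE 0.0634). The exons of 1700097N02Rik share 297 bases with other genes, among them Glo1, the glyoxalase gene, on the same strand, so its reads are uncertain. Strand would not separate reads shared with Glo1. Glo1 has a start 34 bases from that of 1700097N02Rik and was lower as well (-0.19, adjusted p = 0.0166, edgeR). In the fit that tested every member, Gm20684, beside the proprotein convertase gene Pcsk6 and named after its value was seen, was the other decrease. It had 0.288 CPM, 0.227 CPM and 0.219 CPM against 0.115 CPM, 0.0887 CPM and 0.0581 CPM (-1.50, adjusted p = 0.0291, edgeR), from 38 reads in all. Pcsk6 fell too (-0.49, SE 0.0788).

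The partners showed no such shift. Of 102 different partners, 1700018B08Rik being shared by 2 members, 100 were tested, and 22 were higher, 21 lower and 57 did not pass. Among all protein-coding genes tested, 19.4% were higher and 22.6% lower. The partners' median log2 fold change was -0.04, and their range ran from -0.79 for Slc7a5 to 1.61 for Irf2. With libraries scaled by their totals, 29 partners were higher and 15 lower, and without expressing replicate 1 there were 32 lower.

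In 78 pairs both genes were tested. The lncRNA was higher in 21 of 46 pairs whose partner did not pass, in 8 of 15 with a higher partner and in 7 of 17 with a lower one. Of all tested members 46.2% were higher, and differences between these 3 shares were not tested. In 1 pair the lncRNA was lower and the partner higher. Only the partner passed in a further 6 pairs where it was higher and 10 where it was lower, and in 25 neither gene passed. Across the 78 pairs the log2 fold changes of both sides had a Spearman correlation of 0.053 and a Pearson correlation of 0.049, where all points share the same 6 libraries. Given the same way, it was 0.151 over 1225 head-to-head pairs of protein-coding genes and 0.299 over all 753 pairs of a noncoding gene with a protein-coding one. The nearest other protein-coding start, on either strand and either side of the lncRNA, gave 0.217 over 62 members. Its median distance was 37862 bases, and opposite-strand starts close to the lncRNA were left out. For 1700097N02Rik it was the start of Glo1, 34 bases away. Both counts of 8 turned on single libraries. Pairs that moved together numbered 3 when KO replicate 2 was left out, and 4 when expressing replicate 3, KO replicate 1 or KO replicate 3 was. Pairs that moved apart numbered 15 when expressing replicate 1 was left out, 5 for KO replicate 1, 4 for each of expressing replicate 3, KO replicate 2 and KO replicate 3, and 14 with the GC trend removed.

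**Figure D2:**
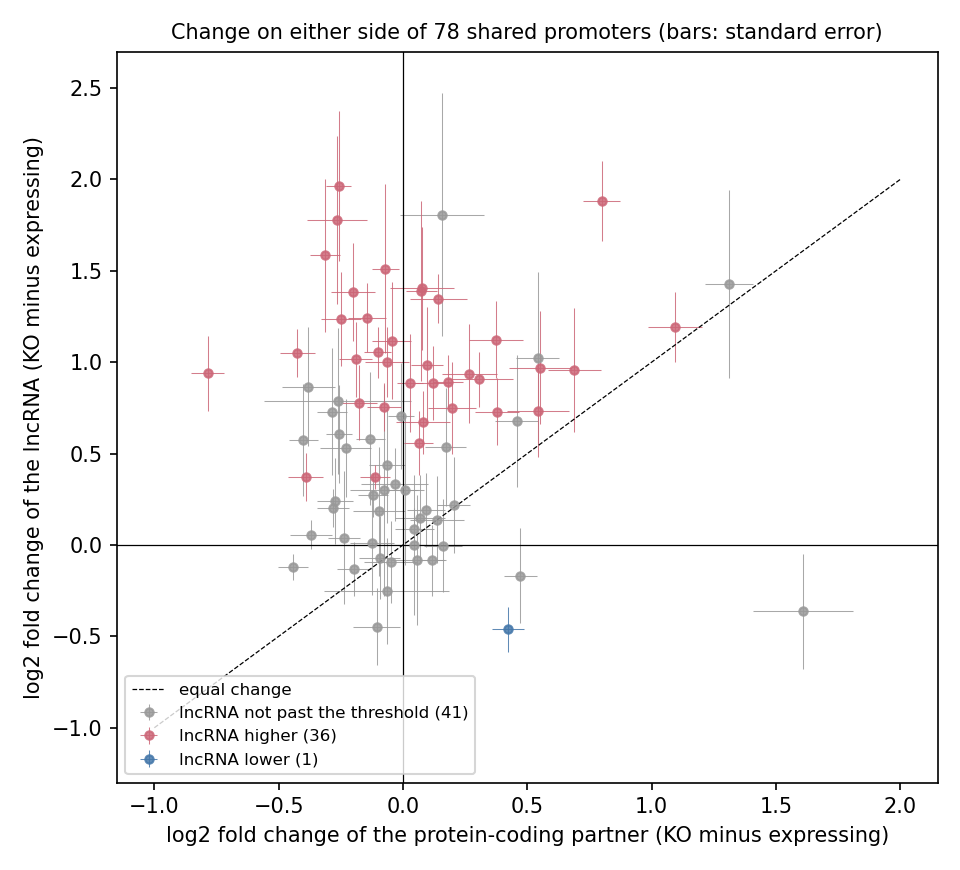
Log2 fold change (KO minus expressing) of each lncRNA against that of its protein-coding partner in 78 pairs, with standard errors; the dashed line marks equal change. The lncRNAs called higher lie over partners on both sides of 0, and 1 lncRNA called lower lies over a higher partner.

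A call on one side and none on the other does not show that the sides differ, so the ratio of lncRNA to partner was tested itself, in limma over all 1978 head-to-head pairs of the annotation. Relative to the partner, the lncRNA was higher in 37 of the 78 pairs, lower in 3, and did not pass in 38. Over all pairs 46.8% passed in either direction, and over the pairs of a noncoding gene with a protein-coding one 38.0% were higher and 3.72% lower. The median change of the ratio was 0.48 on the log2 scale, and 65 of 78 pairs lay above 0. In 27 pairs both the lncRNA and the ratio were higher. In 9 pairs the lncRNA was called higher and the ratio was not, and in 10 the ratio was higher although the lncRNA itself did not pass. The 78 pairs had passed the count filter, whose cutoff 18 tested members reached in all 3 KO but fewer than 3 expressing libraries. Their shares and median are therefore not those of the class. In a ratio fit over all genes with 30 or more reads, a larger set of pairs, 39 were higher and 2 lower.

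The 8 pairs that rose together differed in the ratio. 4632427E13Rik and Rab30 kept theirs close, with a change of 0.14 (95% interval -0.13 to 0.42). The ratio did not pass either for 3110083C13Rik and Micu2, a regulator of mitochondrial calcium uptake (0.35), for Gm48768 and the glycosyltransferase gene Galnt4 (0.11), for AV356131 and the lipid kinase gene Pik3c2a (0.24), or for 0610009L18Rik and the cytoplasmic actin gene Actg1 (0.20). The last 3 of these lncRNAs were called higher less firmly. Gm48768 did not pass in DESeq2 (adjusted p = 0.0766) or when any 1 library other than KO replicate 3 was left out. AV356131 did not pass when any 1 library other than expressing replicate 2 was left out, and 0610009L18Rik did not pass in DESeq2 (adjusted p = 0.102) or when any 1 library other than KO replicate 1 was left out. In the remaining 3 the lncRNA outpaced its partner: 2310014F06Rik over Tead1 by 0.95 (SE 0.207), AC114539.1 over Nfkb2 by 0.67 (SE 0.193) and 2810029C07Rik over the kinase gene Mark3 by 0.67 (SE 0.167). All 8 pairs, apart from those of the largest increases, were named after their values were seen.

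In 7 pairs the sides moved apart with the lncRNA higher, and the ratio passed in all 7. These pairs were picked by opposite calls in the same libraries, and the ratio is the difference of both sides. Its passing is therefore no further support for them. Only 2 of the 8 opposed pairs, Gm47257 with Ddx21 and Gm2449 with Wdr48, have an lncRNA free of exon overlap. E130317F20Rik shares 295 bases with its partner Ptbp1 and Gm9828 shares 382 with its partner Btf3. BC048644 shares 314 exon bases with Car5a, and Cep83os 344 with Gm49167. These values are uncertain where strand was not used in counting. BC048644 stood at 1.19 CPM, 1.29 CPM and 0.849 CPM against 2.21 CPM, 1.77 CPM and 2.42 CPM, with the levels of the groups apart. Its partner Slc7a5, the large neutral amino acid transporter LAT1, went from 228 CPM, 201 CPM and 219 CPM to 131 CPM, 121 CPM and 125 CPM. The ratio rose by 1.68 (SE 0.207, adjusted p = 1.79e-05, limma). In edgeR the lncRNA alone changed by 0.94 and Slc7a5 by -0.79. E130317F20Rik stood at 3.62 CPM, 3.81 CPM and 4.87 CPM against 8.05 CPM, 9.12 CPM and 8.31 CPM, again well apart. Its partner Ptbp1, a splicing repressor, fell from 591 CPM, 495 CPM and 532 CPM to 414 CPM, 393 CPM and 398 CPM, and the ratio rose by 1.46 (SE 0.144, adjusted p = 1.97e-06, limma).

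The other opposed pairs, named after their values were seen, were Gm47257 and Ddx21, an RNA helicase gene of ribosome production (ratio 1.72), Gm2449 and Wdr48, a cofactor of deubiquitinases (1.40), 4732491K20Rik and Map3k4 (1.31), Cep83os and the centriole gene Cep83 (1.15), and Gm9828 and Btf3, a nascent-chain factor gene (0.77). Gm47257 rested on 85 reads and its increase of 1.96 (95% interval 1.04 to 2.89) was the highest of any tested member. Gm2449 itself did not pass when expressing replicate 3 (adjusted p = 0.0545, edgeR) or KO replicate 3 (0.0709) was left out. Gm9828 did not pass in DESeq2 (0.0546) or when any 1 library other than expressing replicate 2 was left out.

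The ratio also rose in pairs whose partner fell and whose lncRNA did not pass. For B230354K17Rik and Cdc5l it rose by 0.33 (SE 0.0682, adjusted p = 0.00131, limma) and for 2810013P06Rik and Ankrd11 by 0.49 (SE 0.118, adjusted p = 0.00367, limma). B230354K17Rik shares exon bases with Cdc5l, so its ratio is uncertain where strand was not used in counting. D430020J02Rik, named after its value was seen, stood at 13.5 CPM, 13 CPM and 14.5 CPM against 14.4 CPM, 14.1 CPM and 14.1 CPM. Its groups overlapped, its own change was 0.06 (95% interval -0.13 to 0.24), and the condensin gene Ncapg2 beside it fell by 0.37, which gave a ratio change of 0.42 (SE 0.101). Of the 17 pairs whose partner was lower, 14 had a higher ratio, and of the 15 whose partner was higher, 3 had a higher and 3 a lower ratio; the partner is itself part of the ratio.

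The 3 ratios that fell were those of 1700097N02Rik to Dnah8 (-0.88, SE 0.125, adjusted p = 6.34e-05, limma), 6330408M09Rik to Rfc4 (-0.62, SE 0.242, adjusted p = 0.0474, limma) and Gm16675 to Irf2 (-1.87, SE 0.318, adjusted p = 0.000266, limma). 6330408M09Rik stood at 0.737 CPM, 0.68 CPM and 0.903 CPM against 0.86 CPM, 0.71 CPM and 0.523 CPM, overlapping throughout, while Rfc4, a subunit of the replication clamp loader, rose by 0.47 (SE 0.0656). Gm16675, named after its value was seen, stood at 0.352 CPM, 0.431 CPM and 0.411 CPM against 0.344 CPM, 0.222 CPM and 0.368 CPM. Its groups overlapped, while the interferon regulatory factor gene Irf2 went from 1.09 CPM, 1.59 CPM and 1.92 CPM to 3.93 CPM, 5.46 CPM and 4.73 CPM. In all 3 pairs the partner rose.

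**Figure D3:**
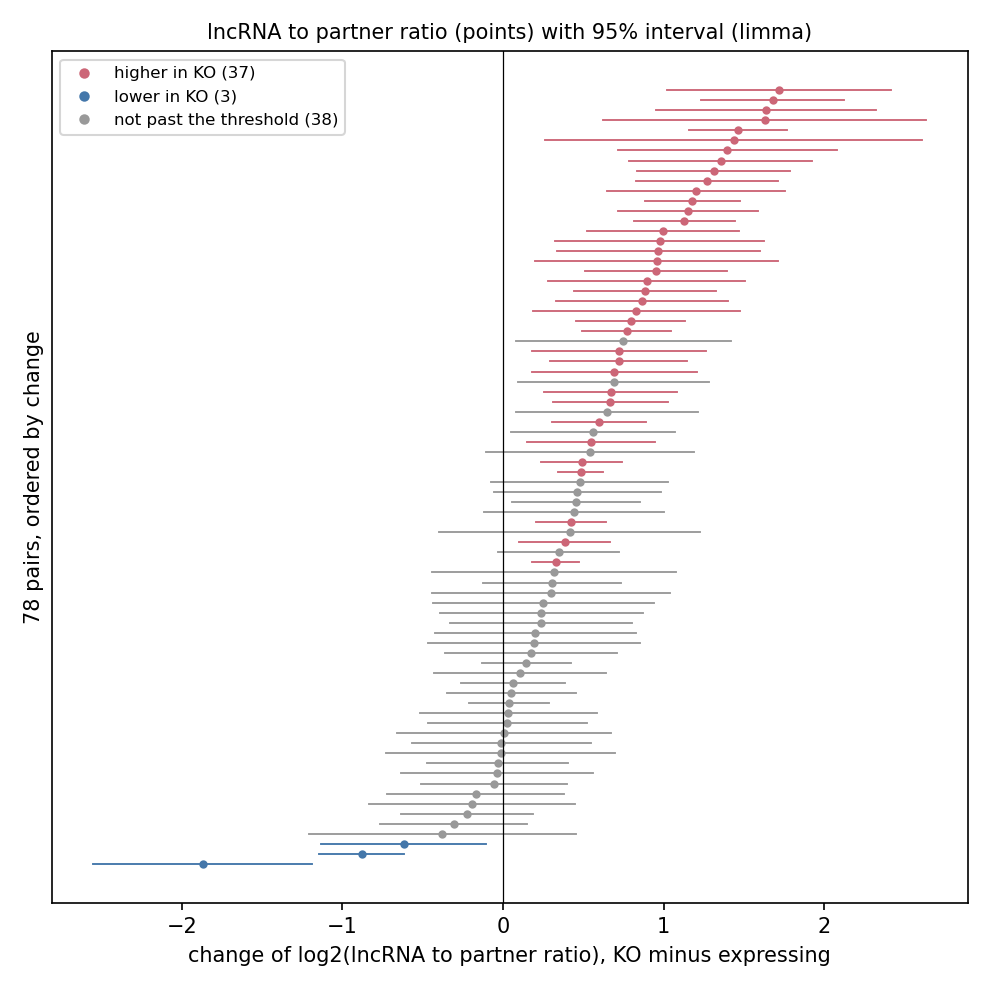
Change of the log2 ratio of lncRNA to partner (KO minus expressing) for 78 pairs in order, with 95% intervals from limma. 65 points lie above 0, and the 3 pairs called lower lie at the bottom.

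Calls were spread over the structural kinds of member, and differences between these kinds were not tested. Of 25 tested single-exon members 12 were higher, and of 55 spliced members 25 were higher and 1 lower. Among members whose exons overlap no other exon 23 of 49 were higher (median 0.73) and 0 lower, also at an unadjusted p under 0.05 and in DESeq2, and among those with an overlap 14 of 31 were higher and 1 lower (median 0.53). Where both starts were up to 100 bases apart 17 of 34 were higher, farther apart 16 of 37, and with overlapping starts 4 of 9. By GC content of the exons, 22 of 40 members under the median of 48.3% were higher and 15 of 40 at or over it. At 1 CPM or more, 21 of 37 were higher and 1 lower.

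Shares of calls differed among the annotated noncoding classes. Of tested genes, 46.2% of the bidirectional promoter lncRNAs were higher and 1.25% lower, against 35.5% and 8.79% of processed transcripts, 32.5% and 5.10% of antisense genes, and 25.6% and 12.3% of intergenic lncRNAs. Genes that the annotation lists as still to be checked by experiment had 18.8% higher and 3.70% lower, and sense intronic RNAs 14.3% and 4.76%. Among snoRNA genes 38.6% were lower, and among processed pseudogenes 3.62% were higher and 18.6% lower. Limited to genes under 5 CPM, 46.5% of the bidirectional promoter lncRNAs, 37.6% of processed transcripts, 30.9% of antisense genes and 20.2% of protein-coding genes were higher. At that level 1.41% of processed transcripts were lower, against 0 of 71 bidirectional promoter lncRNAs. Against a head-to-head protein-coding neighbour, the ratio was higher in 47.4% of the bidirectional promoter pairs, 44.6% of pairs with a gene still to be checked, 40.9% of processed transcript, 37.0% of intergenic lncRNA and 36.3% of antisense pairs. The median ratio change was 0.48 for the bidirectional promoter pairs and 0.56 for those with a gene still to be checked. The differences between classes were not tested.

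**Figure D4:**
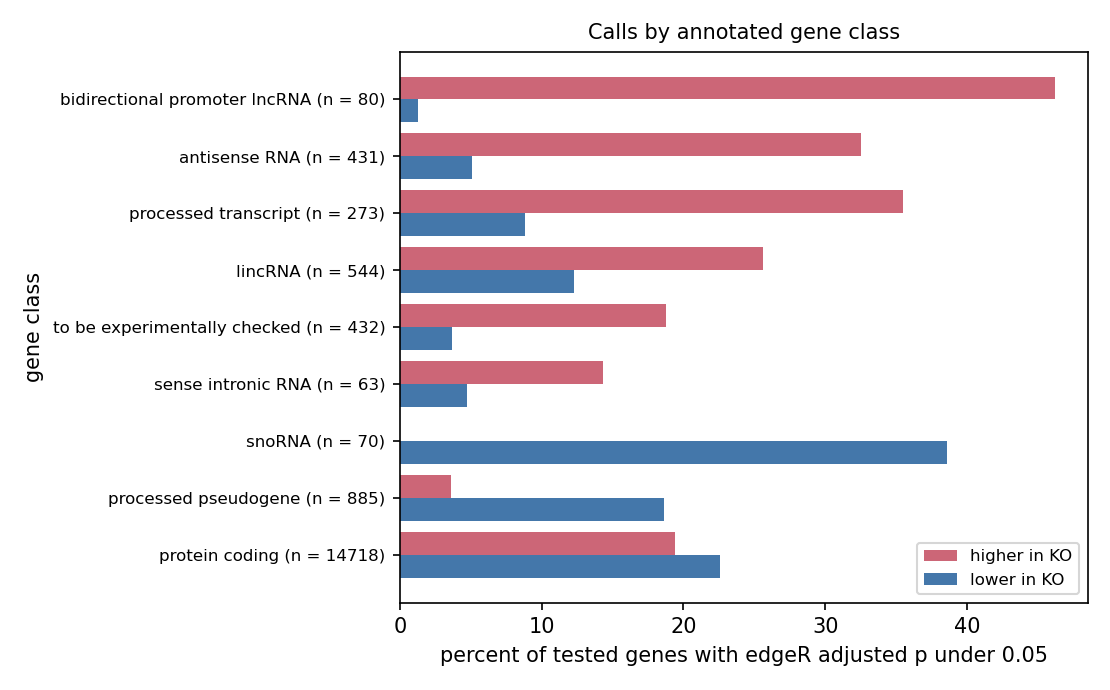
Percent of tested genes of each annotated class that were higher (red) or lower (blue) in the libraries labelled KO by edgeR, with the number tested. The bar for bidirectional promoter lncRNAs reaches 46.2% higher and 1.25% lower, and protein-coding genes 19.4% and 22.6%.

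The promoters shared by the pairs were rich in CpG. A RefSeq window of 300 bases was matched by symbol for 83 of the 103 partners, and 61 of these windows held the annotated start of the lncRNA. Those 61 had a median of 30 CpG dinucleotides and 68.0% GC, against 14 and 57.0% for 16522 protein-coding promoters. Both values were close for the promoters whose lncRNA was higher (30 and 67.3%, 22 promoters) and did not pass (29 and 68.3%, 27 promoters). Short motifs were searched on both strands of the windows. GGGCGG, the GC box, was in 83.6% of the shared promoters and 48.0% of protein-coding ones, CCGGAAG, an ETS core, in 24.6% and 12.3%, and CCAAT in 42.6% and 38.7%. TATAAA was in 3.28% and 12.9%, GCATGCGC, a core of the NRF1 motif, in 4.92% and 3.76%, and AAGATGGC, a core of the YY1 motif, in 9.84% and 3.29%.

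AAGATGGC was in 6 of the 22 windows whose lncRNA was higher and in 0 of the 27 whose lncRNA did not pass. The 6 are the promoters of Cpsf2, where it follows the partner start in the printed sequence, and of Mark3, Micu2, Map3k4, Smndc1 and Wdr48. These are matches of letters, not binding sites, and this difference was noticed in the data and not tested. CCAAT showed the opposite lean, with 7 of 22 against 14 of 27, and GGGCGG none, with 18 of 22 against 23 of 27. TATAAA was in 0 of 22 against 2 of 27.

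Because the libraries were made from polyadenylated RNA, the 3′ ends of the lncRNAs bear on what could be counted. AATAAA or ATTAAA, the common polyadenylation signals, lay in the last 40 bases of an annotated transcript of 63 of the 103 members (61.2%), against 63.8% of tested antisense genes, 62.7% of intergenic lncRNAs and 87.6% of protein-coding genes. It was there for 25 of the 37 members that were higher and 25 of the 42 that did not pass. The last 40 bases of 3 members that rose and of the member that fell are shown as examples that hold a signal, which is in capitals.
2310014F06Rik: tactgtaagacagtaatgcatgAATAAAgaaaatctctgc
5830448L01Rik: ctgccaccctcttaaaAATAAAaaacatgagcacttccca
Gm26708: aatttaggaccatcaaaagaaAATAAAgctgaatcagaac
1700097N02Rik: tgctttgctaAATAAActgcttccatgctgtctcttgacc
They were picked for holding a signal and do not stand for the class.

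Genes for the machinery that acts at promoters and on upstream transcripts were more often lower than higher. Of 97 such genes in 8 lists, all tested, 2 were higher and 47 lower (median -0.17), where 16.3% of genes at 20 CPM or more were higher and 28.1% lower. The counts, those of the separate lists included, depended on the scaling and on single libraries: with library totals 7 were higher and 20 lower, and the 47 decreases became 25 when expressing replicate 3 was left out, 23 for KO replicate 1, 23 for KO replicate 2 and 28 for KO replicate 3. With library totals the early termination list held 2 higher and 2 lower, the cleavage and polyadenylation list 1 and 1, and the pausing and elongation list 2 and 2. The part of these genes in the lncRNA levels was not tested.

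Of 12 genes of the nuclear exosome, the 3′ to 5′ RNA-degrading complex, 8 were lower in edgeR and in DESeq2. With library totals 6 were lower and 1 higher. Exosc4 (-0.51, SE 0.12) and Exosc2 (-0.47, SE 0.0582), both subunits of its core, fell most. Of its catalytic subunits, Exosc10 went from 119 ± 7.64 to 87.6 ± 2.22 CPM (SD, n = 3; -0.44), and Dis3 was lower as well (-0.22, SE 0.0614). Among 12 exosome adaptors and cap-binding proteins 1 was higher and 4 lower, where 28.1% of all genes at 20 CPM or more were lower, a share near that of this list. Zfc3h1, which targets polyadenylated nuclear RNA to the exosome, rose by 0.53 (SE 0.0589), and Srrt, the cap-bound ARS2, fell by 0.43 (SE 0.0724). Of 8 early termination factors 4 were lower, with Wdr82 at -0.48 (SE 0.0524) and Pcf11 at -0.40 (SE 0.0788). Of 14 Integrator subunits, which cleave nascent RNA near promoters, 6 were lower, with Ints5 at -0.48 (SE 0.0764) and Ints12 at -0.30 (SE 0.0627).

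Of 17 cleavage and polyadenylation genes 10 were lower, and Cpsf2, the partner of Ndufb1-ps, was among those that did not pass. DESeq2 called 6 of them lower, and leaving out a library gave 2 for expressing replicate 3, 1 for KO replicate 1, 1 for KO replicate 2 and 3 for KO replicate 3. Of 8 genes of U1 snRNP, which protects transcripts from early polyadenylation, 2 were lower. Of 18 pausing and elongation genes 6 were lower and 1, the PAF complex subunit gene Ctr9, was higher (0.39, SE 0.0525). For U1 snRNP and for pausing and elongation, the share lower was near the 28.1% of all genes at 20 CPM or more. Of 8 nucleosome assembly genes 7 were lower, with the histone chaperone Npm1 at -0.56 (SE 0.0765) and the remodeller Ino80 at -0.54 (SE 0.0568); 4 were lower with library totals.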

How the data were processed

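Polyadenylated RNA of 6 mouse ES cell libraries was sequenced with a stranded kit, per the labels' protocols. The deposited table holds raw read counts per gene, not normalized, which the authors made with cutadapt 1.10, STAR 2.5.3a and HTSeq 0.6.1p1 on mm10, per the submitters' processing notes. Which strand option and annotation release they used is not given in the sources used here. Symbols, classes and positions came from GENCODE M21 (55141 of 55401 identifiers matched).

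Each library's group was read from its title and treatment label. Genes were filtered with filterByExpr (minimum count 10, minimum total 15), scaled by TMM and tested with edgeR 4.0.16 (quasi-likelihood, robust, R 4.3.3) on group alone over 17778 genes, with Benjamini-Hochberg adjustment and a threshold of 0.05. Ratios were tested with limma 3.58.1 (trend, robust) on log2 of CPM + 0.1 per library, lncRNA minus partner, so that the change of low genes is understated. Partner starts lie within 2000 bases. DESeq2 1.42.0 and the other alternatives are in the closing section. The scripts were tested on simulated data.

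Named members are the 8 largest increases and decreases among called members of at least 0.5 CPM, the 4 highest levels per kilobase, the 4 largest ratio changes each way, those at the threshold, and partners in a machinery list. The members, lists and rules were chosen with earlier results of these data known. The dishes may share a culture, so p-values measure the spread between these libraries. The common biological coefficient of variation was 9.05%, and depth limits precision for low members.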

Additional observations from a re-analysis of the deposited data

How the results depend on the processing

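Of the 37 members called higher, 21 passed in each of the 15 other settings that tested them and 16 missed in 1 or more. Leaving out 1 library at a time gave 24 to 35 members higher and 0 to 2 lower (0 without KO replicate 2, where 2 had an unadjusted p under 0.05 in edgeR), 18 to 28 partners higher and 14 to 32 lower, 3 to 10 pairs called in the same direction and 4 to 15 in opposite directions, and 30 to 37 ratios higher and 2 to 3 lower, with fewer samples in each fit. A filter of 1 CPM in 3 libraries, which tests fewer genes, gave 22 members higher, 5 pairs in the same direction, 23 ratios higher and 1 lower. Testing every gene with 30 or more reads, or removing the GC trend, gave 2 members lower, and the latter gave 14 opposed pairs. Members without exon overlap held 23 higher and 0 lower, 11 partners lower, 2 opposed pairs and 24 ratios higher (0 lower also at an unadjusted p under 0.05 in edgeR and in DESeq2), and members with 100 or more reads held 10 partners higher and 12 lower. These last counts come from fewer members.

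The replicate numbers do not pair the samples (correlation of deviations 0.0346, -0.0677 and 0.0817 across genes). With the replicate block 29 members were higher and 1 lower, 5 pairs moved in the same direction and 5 in opposite ones, and with the block and the GC trend removed 36 members were higher, 2 were lower and 13 pairs were opposed. The log2 fold change of 6330408M09Rik ran from -0.33 to 0.017 over the fits without 1 library and turned positive without KO replicate 3 (adjusted p = 0.971, edgeR); the cause was not tested. DESeq2 called 31 members higher and library totals 42. Depth limits the 66 members under 1 CPM, of which 43 were tested.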

Other observations

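3 members had a further protein-coding start within 2000 bases. 9330151L19Rik, named after its value was seen, stood at 2.21 CPM, 4.31 CPM and 3.64 CPM in the expressing libraries and at 7.14 CPM, 7.28 CPM and 7.05 CPM in those labelled KO (1.06, SE 0.193, adjusted p = 0.00221, edgeR). Its nearest partner, Gm49383, had at most 0.0547 CPM in any library and was not tested. The other start, that of Dnaaf2, a dynein assembly factor gene whose exons its own overlap, belongs to a gene at 4.50 CPM with a log2 fold change of -0.01. For Gm48768 the further start was that of the centriole gene Poc1b (-0.11, adjusted p = 0.228, edgeR), and for AC133523.4 that of Gm49405 (-0.04, adjusted p = 0.881, edgeR).

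2 lncRNAs beside developmental genes were members with low levels. Haglr, which starts 84 bases from Hoxd1, stood at 0.769 CPM, 0.454 CPM and 0.712 CPM against 0.573 CPM, 0.421 CPM and 0.601 CPM, with overlapping groups (-0.25, 95% interval -0.91 to 0.40). Dio3os, 896 bases from the imprinted deiodinase gene Dio3, had 41 reads in all and was tested only where every member was, with a log2 fold change of 0.71 (adjusted p = 0.293, edgeR). Both were named after their values were seen.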
